A study of Daucus carota with 6 samples.

Results

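Carrot roots (Daucus carota) that had been shredded and kept at 20 °C were compared after 48 h (T48) and after 24 h (T24) of storage, to see which microRNAs (miRNAs) still differed in the second day. The members are all miRNA names with a value above 0 in at least 1 of the 2 T48 and 2 T24 libraries, which were 260 of the 469 names in the table of the whole series. Both groups came from commercial carrots of unstated cultivar that were disinfected with chlorine, peeled by hand, shredded mechanically and stored, so that both carried the same wound and differed in storage time. The T0 group, shredded and not stored (2 libraries), is used only to place some values. The labels give no plant, batch or tray for a library, and nothing says that the 2 libraries of a time came from separate roots, so p-values measure only the spread between these libraries, which may be technical. The deposited library names are T48.1.L1 and T48.1.L6 at T48, and T24.1.L4 and T24.1.L5 at T24. The 2 names of a time thus differ only in the ending, and the T0 names end in L4 and L5 like those of T24. What these endings mean is not given in the sources used here, and ending and time cannot be told apart.

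Plant miRNAs are short RNAs that guide an Argonaute protein to complementary messenger RNAs, which are then cut or less translated. Many belong to families shared by all land plants, and several of these families control transcription factors of leaf, root and meristem growth. In stored wounded roots, cut tissue seals itself and turns on phenolic metabolism, and miRNA levels are among the features that can be followed over the storage period.

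Each name here carries the species code of the known miRNA that a carrot sequence resembled, such as ath for Arabidopsis thaliana, ptc for poplar, osa for rice, hsa for human, rno for rat, gga for chicken and oan for platypus. A name with an animal code is a label for a carrot read and is no evidence of the animal miRNA, so no role is given to such names. Plant families are assigned by name alone, and sequences of animal-coded names were not compared with those of plant families. A family member under an animal code would thus be counted as animal-coded. Names without a code, such as mir-64, had no known relative. Of the 260 names, 157 had an animal code, 53 a plant code, 40 no relative, 9 another code (algal, viral and similar), and 1 code could not be placed. The 7 sequences shown next belong to abundant miRNAs that the results turn on. They were read from the study's supplementary target search, are written 5′ to 3′, and carry the seed (bases 2 to 8) in capitals.
ath-miR165a-3p: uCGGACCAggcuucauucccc
ptc-miR396f: uUCCACGGcuuucuugaacug
oan-miR-1421ag-5p: cGGUGGACugcuugagcugc
hsa-miR-376a-5p: uUAGAUUCgcgcacaaacucg
rno-miR-337-3p: uUCAGCUCacauaucucucugg
aca-miR-5406-5p: uUUUUAGAccaaaggcucgcu
pte-miR-11943-3p: uUAUGGUGauuuauuugugugg
The 7 sequences were 20 to 22 bases long and no seed occurred in more than 1 of them. In 6 of the 7 the first base was U, and oan-miR-1421ag-5p began with C and had the highest GC content, 65.0%.

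The values were named TPM by the authors and are reads of a miRNA scaled to a library total of 1000000. They rest on 64886 and 199911 reads at T48, against 127079 and 134312 reads at T24. A single read stood for 15.4 and 5.00 TPM at T48 and for 7.87 and 7.45 TPM at T24. An entry of 0 allows up to 3 reads, which are 46.2 and 15.0 TPM at T48 and 23.6 and 22.3 TPM at T24, and these limits cover counting error only. The 3 most abundant miRNAs of a library took 78.5% and 85.6% of its reads at T48 and 85.4% and 88.0% at T24.

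Libraries of 1 time disagreed on which miRNAs were present. Of 146 miRNAs above 0 at T48, 36 (24.7%) were above 0 in both T48 libraries. Of 173 at T24, 54 (31.2%) were above 0 in both T24 libraries. An entry of 0 was also found where many reads would be expected from the other library of the same time. At least 20 reads were expected for 9 of the 57 miRNAs at 0 in the first T48 library, for 38 of the 53 at 0 in the second, for 21 of 68 in the first T24 library and for 20 of 51 in the second. The first T48 library, the shallowest of the 4, listed oan-miR-1421ag-5p at 0, where 30396 reads would be expected from the second. The second listed hpo-miR-232a-5p at 0, where 18507 reads would be expected from the first. What set these entries to 0 was not tested, and no fold change is given here against a time listed at 0.

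The miRNA with the most reads in both T24 libraries and in the second T48 library, oan-miR-1421ag-5p, was listed at 0 and 468448 TPM at T48, against 547148 and 506053 TPM at T24. It took 46.8% of the reads of the second T48 library and 54.7% and 50.6% at T24, and both T0 libraries listed it at 0. Both T48 libraries lay below both T24 libraries, the first of them through its entry of 0. In the same library that lacked it, aca-miR-5406-5p was also listed at 0. That miRNA had 0 and 11405 TPM at T48, against 10789 and 9865 TPM at T24, and like oan-miR-1421ag-5p it was at 0 in both T0 libraries. Where both were present, oan-miR-1421ag-5p had 41.1 times the reads of aca-miR-5406-5p in the T48 library, against 50.7 and 51.3 times in the T24 libraries.

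The opposite pattern was seen for hpo-miR-232a-5p. Its values were 92578 and 0 TPM at T48, against 27204 and 0 TPM at T24, so that it was present in the first library of each time and absent from the second. At T0 both libraries held it, with 31572 and 30082 TPM. No difference between T48 and T24 can be read from either of these abundant miRNAs without its entries of 0.

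**Figure D1:**
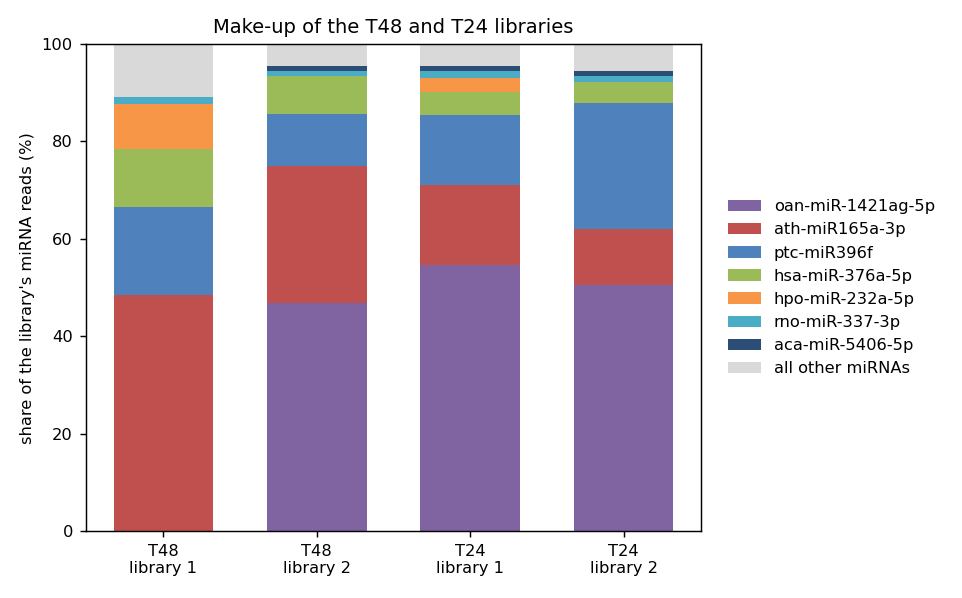
Share of the miRNA reads of each T48 and T24 library (y axis, %) taken by 7 abundant miRNAs and by all others. The first T48 library lacks oan-miR-1421ag-5p, which takes 46.8% of the second T48 library and 54.7% and 50.6% of the T24 libraries.

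Values are shares of a total, and a library that lists oan-miR-1421ag-5p at 0 has more of this total left for every other miRNA. The 22 miRNAs above 0 in all 4 libraries, which took 87.0% and 50.5% of the reads at T48 and 39.9% and 45.9% at T24, are therefore given on 2 scales, as deposited and with library totals that leave out this 1 miRNA. With it left out, the same 22 took 87.0% and 95.0% of the reads at T48 and 88.1% and 92.9% at T24. On the deposited scale the median log2 difference (T48 minus T24, of TPM + 1) over the 22 was 0.57, beside -0.59 over all 260 members, and 14 of the 22 had a positive sign. On the second scale it was -0.054, beside -1.06 over all members, and 10 of the 22 had a positive sign. Leaving out the first T48 library turned the deposited median to -0.14.

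Across all 260 members, 28 (10.8%) passed the call used here, an unadjusted limma p no higher than 0.05 together with a 2-fold or larger change, of which 7 (2.69%) were higher and 21 (8.08%) lower at T48. Adjusted p-values ran from 0.131 to 0.275, and 0 passed at 0.05. All 28 were above 0 in both libraries of 1 time and at 0 in both of the other, so a call here marks presence against entries of 0. Every member with this pattern was called, 7 at T48 and 21 at T24, so the p threshold selected nothing beyond the pattern. The 7 higher ones took 0.342% and 0.260% of the T48 reads, and the 21 lower ones 0.537% and 0.698% of the T24 reads. With voom, limma's method for counts, on the recovered reads, 26 were called, 12 higher and 14 lower, of which 16 were among the 28, and 10 passed an adjusted p of 0.05. One of those 10 was oan-miR-1421ag-5p, called lower (adjusted p = 4.49e-07) through its 0 in 1 T48 library. The count was 71 without the first T48 library, 83 without the second, 89 without the first T24 library and 61 without the second, since a single library then stands for a time.

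The largest deposited difference among the miRNAs above 10000 TPM that were present in all 4 libraries was that of ath-miR165a-3p, by name of the plant miR165 family. Together with the near-identical miR166, miR165 is known in Arabidopsis for restraining the HD-ZIP III transcription factors that set organ polarity and vascular pattern. Whether the carrot sequence is nearer to miR165 or to miR166 was not tested. ath-miR165a-3p had 485883 and 280735 TPM at T48, against 164402 and 113944 TPM at T24, and the T0 libraries held 154092 and 161861 TPM. Both T48 libraries lay above both T24 libraries, and as deposited the T24 values sat around those of T0. The log2 difference was 1.43 (SE 1.40), and this miRNA did not pass the test over all members (limma, adjusted p = 0.448). That SE borrows from all members, most of them at 0 in some library, while the pooled SD of its own log2 values was 0.48. Without oan-miR-1421ag-5p in the totals its values were 485883 and 528142 TPM at T48 and 363036 and 230680 TPM at T24. Both T24 libraries then lay above both T0 libraries, which list oan-miR-1421ag-5p at 0 and so keep their values, and the placement of T24 against T0 thus changed with the scale. T48 and T24 stayed apart on that scale, with a log2 difference of 0.81 (SE 0.38, adjusted p = 0.263 with limma on the 22). With the first T48 library left out, the deposited difference was 1.04.

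ptc-miR396f, a member of the miR396 family that in Arabidopsis limits growth-regulating factors (GRFs) and with them cell proliferation, had the opposite sign. Its deposited values were 178945 and 106577 TPM at T48, against 142116 and 259835 TPM at T24. These ranges overlap, with a log2 difference of -0.48 (SE 1.42). At T0 it had held most of the reads, with 651566 and 645984 TPM. Without oan-miR-1421ag-5p in the totals, ptc-miR396f had 178945 and 200503 TPM at T48, against 313825 and 526039 TPM at T24. Both T48 values were then below both T24 values, and the log2 difference was -1.10 (SE 0.40, adjusted p = 0.177 with limma on the 22).

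The ratio of these 2 plant miRNAs within a library does not depend on the total. ath-miR165a-3p had 2.72 and 2.63 times the reads of ptc-miR396f at T48, against 1.16 and 0.439 times at T24. At T0 the ratio was 0.236 and 0.251. The T48 libraries agreed closely and both lay above both T24 libraries, which differed from each other more than the T48 libraries did. On the log2 scale the ratio averaged 1.42 ± 0.031 at T48 and -0.49 ± 0.99 at T24 (SD, n = 2 each). An exact two-sided permutation test gave p = 0.33, which is the smallest p that 2 libraries against 2 can give.

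**Figure D2:**
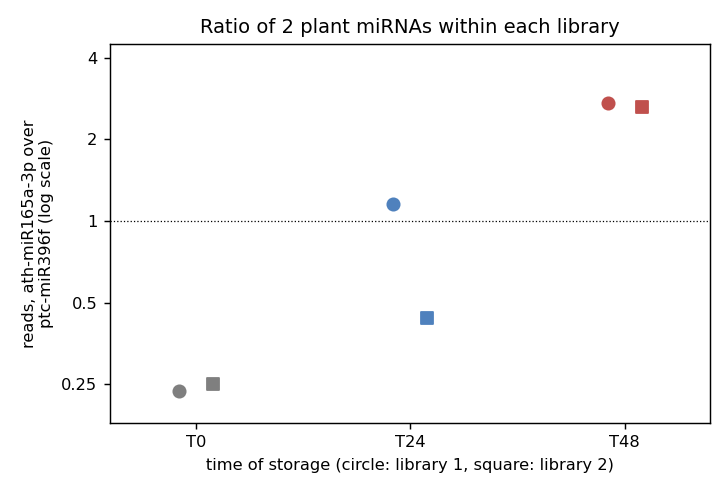
Reads of ath-miR165a-3p divided by reads of ptc-miR396f within each library (y axis, log scale) at T0, T24 and T48 (x axis); each symbol is 1 library. The T48 libraries lie at 2.72 and 2.63, above the T24 libraries at 1.16 and 0.439.

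The other members of the miR396 family were scarce. ath-miR396a-5p had 139 and 95.0 TPM at T48, against 39.3 and 104 TPM at T24, with a log2 difference of 0.83 on the deposited scale and 0.22 without oan-miR-1421ag-5p in the totals. Its groups overlapped on both scales. osa-miR396e-5p had 3884 and 635 TPM at T48, against 0 and 648 TPM at T24, and was at 0 in both T0 libraries. Because 3 similar names share this family, reads could have been split between them in the authors' counting.

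Of the remaining plant family members above 0 in all 4 libraries, ath-miR168a-5p belongs to the family that in Arabidopsis targets ARGONAUTE1, the protein that carries miRNAs. It had 11220 and 4262 TPM at T48, against 3557 and 5182 TPM at T24. The second T48 library lay between the T24 libraries, so the groups overlapped, and the log2 difference was 0.69 as deposited and 0.063 on the second scale. ath-miR160a-5p, of the family that controls auxin response factors, had 2759 and 590 TPM at T48, against 897 and 1906 TPM at T24. Its log2 difference was -0.035 as deposited and -0.66 without oan-miR-1421ag-5p. The T48 libraries stood on either side of both T24 libraries as deposited, and no direction could be read.

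ath-miR164a belongs to the family that controls NAC transcription factors of the CUC group, which mark organ boundaries. It had 1341 and 345 TPM at T48, against 897 and 1750 TPM at T24, with T0 libraries at 3560 and 3626 TPM. As deposited the groups overlapped. Without oan-miR-1421ag-5p in the totals it had 1341 and 649 TPM at T48, against 1981 and 3542 TPM at T24, which no longer overlap, with a log2 difference of -1.50 (SE 0.53, adjusted p = 0.177 with limma on the 22). ptc-miR477e-5p had 123 and 30.0 TPM at T48, against 150 and 179 TPM at T24, with T0 libraries at 1014 and 951 TPM. Both T48 libraries were below both T24 libraries on either scale, although the values rest on 8 and 6 reads at T48 and 19 and 24 reads at T24. The log2 difference was -1.41 as deposited and -2.04 without oan-miR-1421ag-5p (SE 0.48, adjusted p = 0.0982 with limma on the 22).

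The miR171 family, which restrains GRAS transcription factors of the HAM group in Arabidopsis, was present under 2 names. ptc-miR171l-3p had 108 and 155 TPM at T48 and was listed at 0 in both T24 libraries, while T0 held 562 and 252 TPM. ath-miR171b-3p had 0 and 60.0 TPM at T48, against 110 and 81.9 TPM at T24, with T0 libraries at 246 and 298 TPM. The names thus differed in which time held them. The related ath-miR170-3p was found in the first T48 library only, at 61.6 TPM. In the study's list, dqu-miR-750-5p lies at an overlapping precursor on the same strand, with 0 and 37.2 TPM at T24 and 0 at T48. With these names merged, the log2 difference was 0.36 (SE 3.27, limma adjusted p = 0.965).

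For ptc-miR171l-3p a second name has to be read beside it. The study's list of precursor positions places mir-23, a name with no known relative, at an overlapping precursor on the same strand. mir-23 was listed at 0 in both T48 libraries, against 582 and 1169 TPM at T24, and at 0 in both T0 libraries. Every one of the 6 libraries therefore listed exactly 1 of the 2 names. Their sum was 108 and 155 TPM at T48, against 582 and 1169 TPM at T24, and with the names merged neither call remained (log2 difference -2.66, SE 1.39, limma adjusted p = 0.457).

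The miR319 family controls TCP transcription factors of leaf growth in Arabidopsis. ath-miR319a was listed at 0 in both T48 libraries, against 0 and 536 TPM at T24. ppt-miR319a was also listed at 0 in both T48 libraries, against 323 and 0 TPM at T24, so that together the family was present in both T24 libraries and in no T48 library. The name dme-miR-286-5p, placed at the same precursor, had 139 and 0 TPM at T48 and was at 0 in both T24 libraries. The sum of the 3 names was 139 and 0 TPM at T48, against 323 and 536 TPM at T24 (limma adjusted p = 0.457).

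The rest of the plant family names were close to the detection limit. ath-miR156a-5p, of the family that delays adult growth through SPL factors, had 0 and 30.0 TPM at T48 and none at T24. sbi-miR397-3p, of the family that targets laccases, had 0 and 20.0 TPM at T48 and none at T24. These values stand on 6 and 4 reads. bdi-miR827-5p had 0 and 45.0 TPM at T48 and none at T24, whereas ath-miR827 was at 0 at T48, against 31.5 and 0 TPM at T24. pab-miR482j had 0 and 55.0 TPM at T48, against 63.0 and 0 TPM at T24. No direction can be given for any of them.

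Summed over the 18 plant family names, the families took 68.4% and 39.4% of the reads at T48, against 31.3% and 38.4% at T24, with means of 53.9 ± 20.6% and 34.8 ± 5.06% (SD, n = 2 each). An exact two-sided permutation test gave p = 0.33, the smallest it can give. The sum goes by name and leaves out any plant family sequence under an animal code. The difference of 19.1 percentage points was 4.53 without the first T48 library and 33.6 without the second, and it turned to -2.15 without oan-miR-1421ag-5p in the totals, where the shares were 68.4% and 74.1% at T48 and 69.0% and 77.8% at T24. Within that sum, miR165 (as named, without a test against miR166) held 48.6% and 52.8% of the reads at T48, against 36.3% and 23.1% at T24. miR396 held 18.3% and 20.2% at T48, against 31.4% and 52.8% at T24. Both families kept their libraries apart by time on this scale (exact permutation p = 0.33 for each, n = 2 per time), while their sum with the other families overlapped.

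Among the animal-coded names above 0 in all 4 libraries, hsa-miR-376a-5p had the highest values. It had 120211 and 79010 TPM at T48, against 48741 and 41232 TPM at T24, with T0 libraries at 74187 and 89174 TPM. The T48 libraries lay above the T24 libraries as deposited and also without oan-miR-1421ag-5p, where they had 120211 and 148641 TPM, against 107632 and 83475 TPM. The log2 difference was 1.12 as deposited (SE 1.37, adjusted p = 0.545) and 0.50 on the second scale (SE 0.35, adjusted p = 0.526), both with limma.

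rno-miR-337-3p had 12776 and 9034 TPM at T48, against 15109 and 14034 TPM at T24. Both T48 values were below both T24 values on either scale. Without oan-miR-1421ag-5p it had 12776 and 16996 TPM at T48, against 33364 and 28413 TPM at T24, with T0 libraries at 15741 and 17914 TPM, so that the T48 values were near those of T0 on this scale and below them as deposited. The log2 difference was -0.44 as deposited and -1.06 on the second scale (SE 0.35, adjusted p = 0.177 with limma on the 22). cin-miR-4168-3p was scarcer and had the smallest spread within a time of the 22 on the second scale, with 478 and 452 TPM at T48, against 1147 and 1176 TPM at T24. This miRNA had only 31 and 48 reads at T48 and 66 and 78 reads at T24, and its spread was not tested against counting error. Its log2 difference was -0.70 as deposited and -1.32 on the second scale (SE 0.31, adjusted p = 0.0982 with limma on the 22).

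gga-miR-1799 had 13732 and 5948 TPM at T48, against 4100 and 5309 TPM at T24, and was at 0 in both T0 libraries. The groups did not overlap on either scale, and the log2 difference was 0.95 as deposited and 0.33 without oan-miR-1421ag-5p. pte-miR-11943-3p had 9447 and 5728 TPM at T48, against 4131 and 4132 TPM at T24, with T0 libraries at 3166 and 2263 TPM. It too stayed higher in both T48 libraries on either scale, with log2 differences of 0.83 and 0.21. mir-64 had 13146 and 5457 TPM at T48, against 4895 and 5398 TPM at T24. Its groups did not overlap as deposited and did overlap on the second scale (log2 difference 0.096). The plant-coded pab-miR3696 had 3514 and 1376 TPM at T48, against 1369 and 1199 TPM at T24. It likewise overlapped only on the second scale (log2 difference 0.15).

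Several of the 22 had wide spreads within a time. bma-miR-9507 had 3930 and 2381 TPM at T48, against 3360 and 156 TPM at T24. It had the largest deposited log2 difference of the 22, 2.07, and the difference became -0.14 without the second T24 library. cel-miR-77-5p had 7089 and 1316 TPM at T48, against 2093 and 1936 TPM at T24, with T0 libraries at 0 and 63.0 TPM. Its T48 libraries enclosed the T24 ones, and its log2 difference was 0.60 as deposited and -0.023 on the second scale.

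For dya-miR-9681-5p (2065 and 805 TPM at T48, 873 and 901 TPM at T24) the sign also turned between the scales, with log2 differences of 0.54 and -0.084. efu-miR-9225 had 940 and 460 TPM at T48, against 732 and 350 TPM at T24. Its log2 difference of 0.38 turned to -0.25. osa-miR1882a had 170 and 110 TPM at T48, against 86.6 and 141 TPM at T24, and its log2 difference of 0.30 turned to -0.32. All 3 overlapped between times on both scales. dvi-miR-9696a-5p had 2204 and 630 TPM at T48, against 897 and 558 TPM at T24, and its log2 difference was 0.74 as deposited and 0.11 on the second scale. Its groups overlapped on both scales.

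By mean T48 value, the 2 scarcest of the 22 were sja-miR-3505 and gga-miR-1762. sja-miR-3505 had 61.6 and 55.0 TPM at T48, against 86.6 and 59.6 TPM at T24. gga-miR-1762 had 61.6 and 35.0 TPM at T48, against 39.3 and 104 TPM at T24. Both overlapped as deposited. Both were lower in each T48 library on the second scale, with log2 differences of -0.92 (SE 0.45) and -1.08 (SE 0.51), and both rest on few reads, 4 and 11 at T48 and 11 and 8 at T24 for sja-miR-3505.

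**Figure D3:**
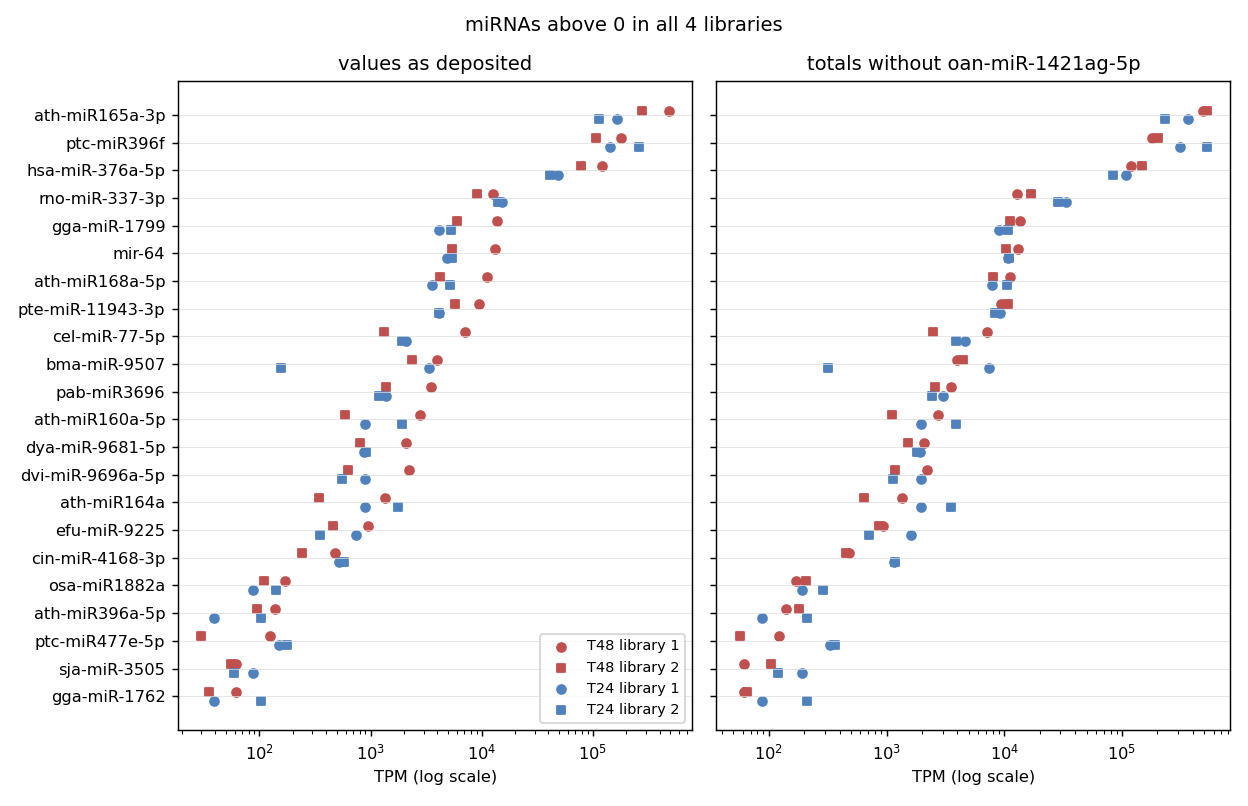
TPM (x axis, log scale) of the 22 miRNAs above 0 in all 4 libraries (rows, by mean T48 value), as deposited on the left and with totals that leave out oan-miR-1421ag-5p on the right; each symbol is 1 library. On the left the first T48 library lies to the right of the others for 15 of the 22, on the right for 7.

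Counted over the 22, both T48 libraries were above both T24 libraries for 6 and below for 3 as deposited, and above for 4 and below for 7 with oan-miR-1421ag-5p left out of the totals. The same counts over all members were 14 above (5.38%) and 30 below (11.5%) of 260 as deposited, and 11 above (4.25%) and 35 below (13.5%) of 259 on the second scale. As deposited, the T48 libraries differed from each other by a median of 1.01 on the log2 scale over the 22, the T24 libraries by 0.53, and a T48 from a T24 library by 0.51 to 1.22. With oan-miR-1421ag-5p left out, the medians were 0.36 between the T48 libraries, 0.50 between the T24 libraries, and 0.54 to 0.80 between a T48 and a T24 library. By this median, each of the 4 pairs across times lay farther apart on that scale than either pair within a time. The number of the 22 more than 2-fold apart did not separate them as fully. It was 4 in either pair within a time, 4 for each T48 library against the first T24 library and 8 for each against the second.

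None of the 22 was called in the limma fit over all 260 members (0 had an unadjusted p of 0.05 or less). Its SEs borrow from all members, most of them at 0 in some library, and were 1.37 to 2.16 for the 22. Beside log2 differences of -1.41 to 2.07, such SEs allow no call, so this fit does not decide whether the 22 differ. With voom on the recovered reads 1 of them was called, ath-miR165a-3p (log2 difference 1.42, SE 0.44, adjusted p = 0.0364). The totals in that fit included oan-miR-1421ag-5p, and voom was not run without it. With limma on log2 values, the difference of ath-miR165a-3p was 1.43 as deposited and 0.81 on the second scale. In the 20 other limma fits its adjusted p was 0.150 to 0.805. With limma fitted on the 22 alone, 1 (4.55%) was called as deposited, bma-miR-9507, at an adjusted p of 0.469. This fit gave all 22 the same SE, 0.87, so it ranked them by size of difference alone. The pooled SD of the log2 values of bma-miR-9507 itself was 2.24. With oan-miR-1421ag-5p also left out of the totals, a combination chosen after the data were seen, 5 of the 22 (22.7%) were called and all 5 were lower at T48. They were ptc-miR477e-5p, cin-miR-4168-3p, ath-miR164a, ptc-miR396f and rno-miR-337-3p, with adjusted p-values of 0.0982 to 0.177, and none passed at 0.05. Over the 20 fits the adjusted p of ptc-miR477e-5p was 0.012 to 0.805 and that of cin-miR-4168-3p 0.094 to 0.805. This count was 3 without the first T48 library, 3 without the second, 6 without the first T24 library and 4 without the second. Of the 6, 5 were lower and 1, bma-miR-9507, was higher at T48, and in the other fits all calls were lower. Of these 4 fits, the one without the first T24 library gave bma-miR-9507 a log2 difference of 3.72. The lone T24 library then held 21 reads of this miRNA. ptc-miR477e-5p and cin-miR-4168-3p were called in all 4 of these fits.

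**Figure D4:**
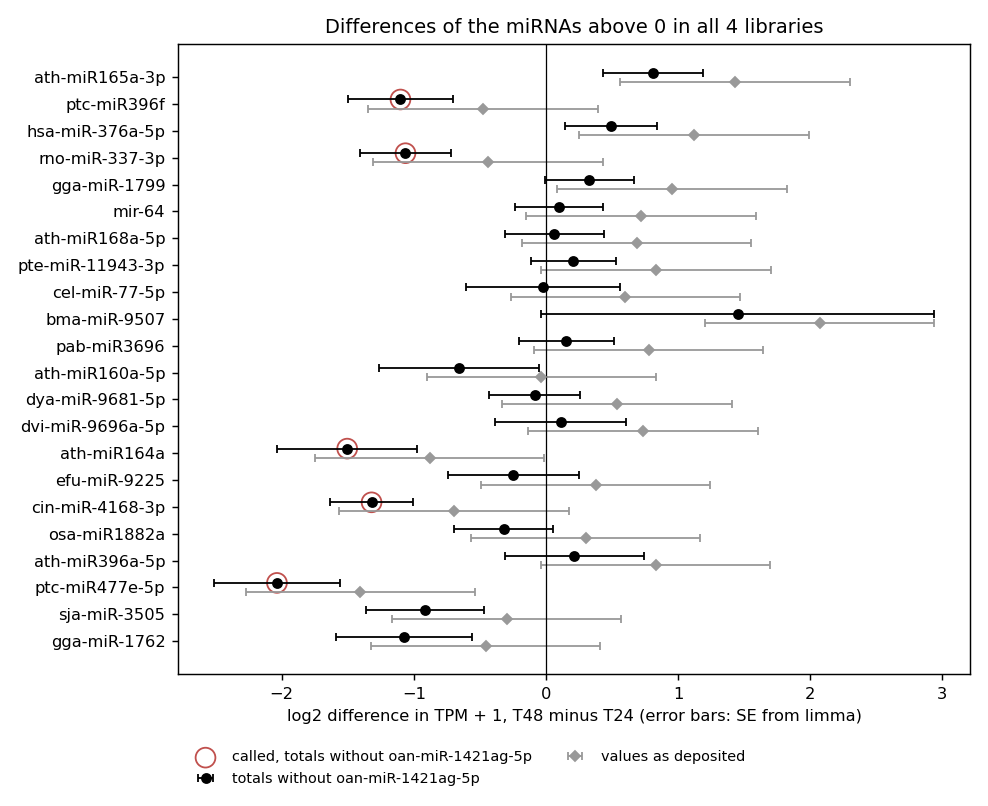
Difference in log2(TPM + 1), T48 minus T24 (x axis), of the 22 miRNAs above 0 in all 4 libraries, with limma's SE from the fit on the 22 as error bars. As deposited, this SE was the same, 0.87, for all 22. Black circles leave oan-miR-1421ag-5p out of the totals, grey diamonds are the values as deposited, and red rings mark the 5 called lower on the first of these scales.

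Of the 7 higher miRNAs, 6 had an animal code and 1, ptc-miR171l-3p, a plant code. cin-miR-4158-5p had 1187 and 635 TPM at T48 and was listed at 0 at T24 and at T0. gga-miR-1595-5p had 771 and 860 TPM at T48 and 0 at T24, with 0 and 458 TPM at T0. mmu-miR-466d-5p had 694 and 760 TPM at T48 and 0 at T24, yet it had 284 and 281 TPM at T0. These 3 had the highest T48 values of the 7, and each had at least 45 reads in either T48 library (adjusted p = 0.131 for each, limma). cin-miR-4071-5p had 447 and 95.0 TPM at T48, and 136 and 0 TPM at T0. The first T48 library was the higher one for this miRNA. nve-miR-2050-5p had 108 and 55.0 TPM at T48. cin-miR-4027-5p had 108 and 40.0 TPM at T48, and both were at 0 at T24 and T0. Those last 2 rest on 7 to 11 reads a library. By their T0 values, 2 of the 7 were present in both T0 libraries, 2 in 1 and 3 in none.

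The 21 lower miRNAs comprised 11 with an animal code, 6 with no relative, 2 with a plant code and 2 with another code. The 4 most abundant at T24 had no relative. mir-50 had 0 TPM in both T48 libraries, against 913 and 2025 TPM at T24. mir-52 had 0 at T48, against 936 and 916 TPM at T24. mir-23 had 0 at T48, against 582 and 1169 TPM at T24, and mir-59 had 0 at T48, against 834 and 670 TPM at T24. Each of the 4 rests on at least 74 reads in either T24 library (adjusted p = 0.131 for each, limma). mir-52 and mir-23 were at 0 at T0, mir-50 had 233 and 0 TPM there, and mir-59 had 0 and 1237 TPM. At a precursor overlapping that of mir-50, mir-51 had 0 and 264 TPM at T0 and was at 0 at T24 and T48. Neither mir-23 nor mir-59 kept its call once names at overlapping precursors were merged. For mir-59 the second name was mir-73, which had 709 and 0 TPM at T48 and was at 0 at T24.

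hsa-miR-553 had 559 and 402 TPM at T24 and was at 0 at T48, and it had been present in both T0 libraries at 142 and 229 TPM. sko-miR-4835-5p was the only other one of the 21 present in both T0 libraries, with T24 libraries at 94.4 and 112 TPM and T0 libraries at 446 and 332 TPM. Its values were thus lower at each later time, with no overlap.

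The remaining 15 lower miRNAs were scarce, with T24 values of 23.6 to 275 TPM, and all were at 0 in both T48 libraries. At T24, bta-miR-2285i had 275 and 164 TPM. mir-48 had 205 and 261 TPM, and mir-62 had 157 and 201 TPM. These 3 were the highest of the 15. cel-miR-58a-3p had 134 and 194 TPM at T24. For hsa-miR-3615 the values were 134 and 164 TPM. For ebv-miR-BART20-3p they were 126 and 179 TPM. These 6 were at 0 in both T0 libraries, so that under these names they were seen at T24 alone. For bta-miR-2285i a name at an overlapping precursor, ppy-miR-1305, had 168 and 0 TPM at T0 and was at 0 at T24 and T48. hsa-miR-3615 lost its call when merged with hsa-miR-4638-5p, a name at an overlapping precursor that had 0 and 165 TPM at T48.

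The other 9 of the 15 had T24 values of 23.6 to 127 TPM. cin-miR-4092-3p had 70.8 and 127 TPM, and cre-miR1172.2 had 86.6 and 67.0 TPM. cbr-miR-2226-3p had 47.2 and 67.0 TPM, and rno-miR-3546 had 39.3 and 67.0 TPM. In none of these did a T24 library exceed 17 reads. hsa-miR-4775 had 23.6 and 52.1 TPM, and dme-miR-315-5p had 39.3 and 44.7 TPM. Both plant-coded names, gra-miR7494d and ppt-miR1077-5p, had 47.2 and 37.2 TPM. The lowest of all, hsa-miR-4535, had 23.6 and 29.8 TPM, which are 3 and 4 reads. For 6 of the 21 lower miRNAs at least 1 T24 value was under 46.2 TPM, the 3 reads that an entry of 0 allows in the first T48 library, and for 2 both values were. For these, a lower level at T48 was not detectable in the first T48 library at its depth. By the T0 values of these names, 2 of the 21 were present in both T0 libraries, 6 in 1 and 13 in none. Other names at overlapping precursors, such as mir-51 for mir-50, are not counted there.

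**Figure D5:**
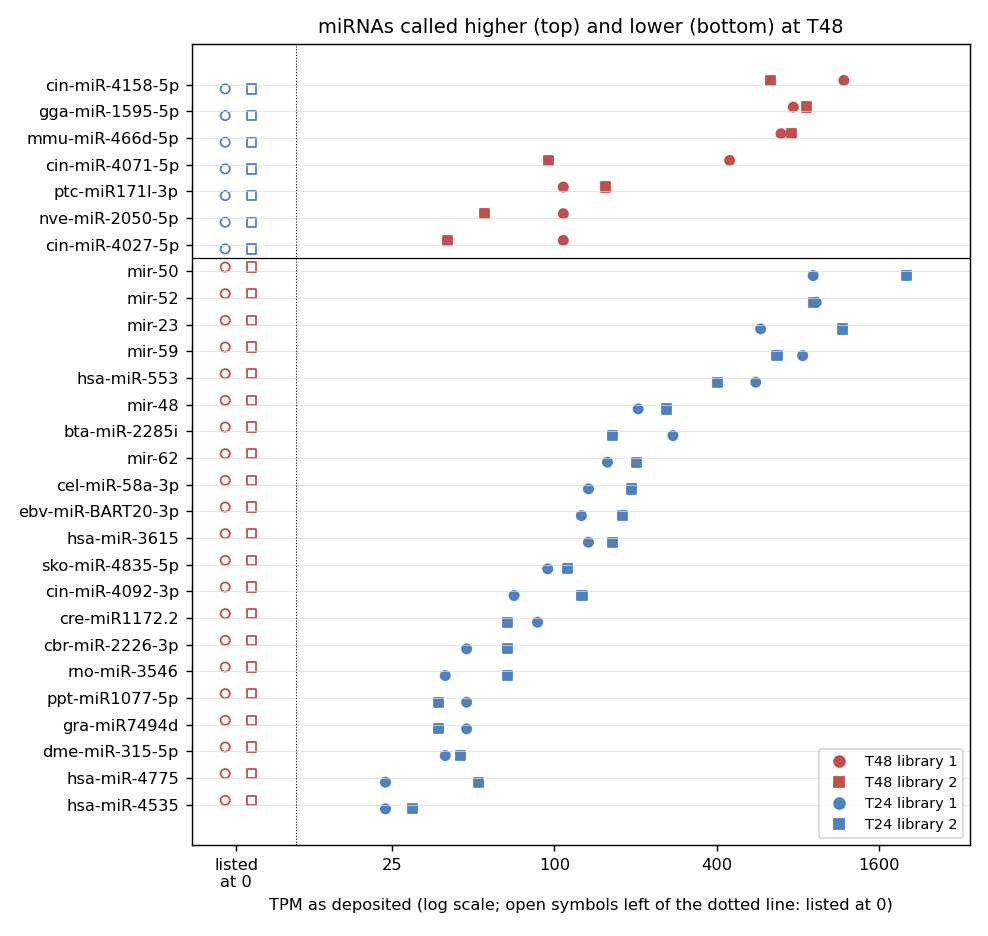
TPM as deposited (x axis, log scale) of the 28 called miRNAs (rows) in each T48 and T24 library; open symbols left of the dotted line are entries of 0. The 7 called higher (top) are at 0 in both T24 libraries, and the 21 called lower (bottom) are at 0 in both T48 libraries.

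Merging names at overlapping precursors left 26 calls, of which 23 were under a name also called before merging. The merged set of mir-44 and gma-miR5030b became a call, since mir-44 alone had 478 and 0 TPM and gma-miR5030b alone had 0 and 300 TPM at T48, with both at 0 at T24 (adjusted p = 0.164, limma). The merged set of dme-miR-4956-3p and mtr-miR2089-3p became one in the other direction, with 0 and 0 TPM at T48, against 55.1 and 81.9 TPM at T24. The merged set of dme-miR-315-5p was called under another of its names, ssa-miR-301c-5p. In all, 35 of the member names fell on 23 sets of overlapping precursors, 11 of which held at least 2 members, and whether reads of 1 locus were given different names in different libraries was not tested.

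The number of miRNAs above 0 was 89 and 93 in the T48 libraries, against 105 and 122 in the T24 libraries, or 91.0 ± 2.83 and 114 ± 12.0 (SD, n = 2 each). The T48 counts were both lower, by 22.5 miRNAs on average, and the exact two-sided permutation p was 0.33, the smallest possible. With a minimum of 50 TPM the counts were 85 and 70 at T48 and 83 and 93 at T24, which overlap, and without the second T24 library the difference was -14.0. The T48 libraries had 64886 and 199911 reads and the T24 libraries 127079 and 134312, and the part of depth in these counts was not tested.

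Most members were seen in a single library. At T48, 80 of the 260 were above 0 in 1 library and absent from T24, and at T24, 93 were above 0 in 1 library and absent from T48. These took 2.21% and 0.737% of the reads of the T48 libraries and 0.433% and 1.28% of those at T24. Their median was 9.5 reads in the first T48 library, 16 in the second, and 10 in either T24 library. The 3 highest at T48 all came from the first library, cbr-miR-54a-5p at 5147 TPM, mir-71 at 4161 TPM and sma-miR-8454-5p at 2867 TPM. The 3 highest at T24 all came from the second library, hsa-miR-889-3p at 4132 TPM, mmu-miR-5615-5p at 1109 TPM and dmo-miR-306-3p at 648 TPM. With no second library behind them, these values give no difference between times.

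Between these extremes, 18 members were above 0 in 3 of the 4 libraries and 19 in 1 library of each time. Of the 18, 7 were present in both T48 libraries and in 1 T24 library, and 11 in both T24 libraries and in 1 T48 library. Of the 11, 7 were missing from the first T48 library and 4 from the second. Plant-coded names were above 0 in all 4 libraries for 9 of 53 (17.0%), animal-coded names for 12 of 157 (7.64%) and names with no relative for 1 of 40 (2.50%).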

How the data were processed

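Small RNA of shredded carrot was sequenced in 2 libraries each at T48, T24 and T0. According to the study's methods and the submitters' processing notes, the authors removed adaptors (cutadapt) and then all reads shorter than 18 nucleotides or of a mean quality below 20, and matched the rest to miRBase with Bowtie2 and miRDeep2 (at most 1 mismatch, up to 200 multi-mapping positions). The genome build was not stated. The authors deposited a table whose values are named TPM, but these are RPM values that sum to 1000000 in each library, with no length term. Read counts were recovered from the value steps, and all values above 0 were whole within a tolerance of 0.001 reads.

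T48 was compared with T24 with lmFit and eBayes of limma 3.58.1 (R 4.3.3), applied to log2(TPM + 1) in the 4 libraries, over the 260 miRNAs above 0 in at least 1 of these. The criteria for a call, an unadjusted p no higher than 0.05 and a 2-fold or larger change, are those of the study's statistics section. Printed p-values are adjusted by the Benjamini-Hochberg method over all miRNAs fitted. The authors used DESeq2, which was not run here, and on the recovered reads limma's voom was run instead. The pseudocount of 1 TPM is below the worth of a single read in every library and so enlarges differences against entries of 0, and limma's standard errors borrow from all miRNAs fitted. Exact permutation tests were made in scipy 1.17.1 (Python 3.11.15, pandas 2.3.3, numpy 2.4.6), and figures with matplotlib 3.10.9. miRNAs named are those called, those above 0 in all 4 libraries, plant family names, those above 10000 TPM in a library, and the 3 highest of each time among those in 1 library. Members, lists and tests were chosen with earlier results of these data known. Alternatives were other pseudocounts, filters, scalings and thresholds, a variance trend, a fit with all 6 libraries, limma's voom, merged precursor names and single libraries left out. The study's list of precursor positions was used only to find overlaps of at least 1 base on the same strand. T0 values are given beside some miRNAs, and no test against T0 was made.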

Additional observations from a re-analysis of the deposited data

How the results depend on the processing

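In place of the 28 calls there were 0 at an adjusted p of 0.05 and 221 at an adjusted p of 0.5, where the threshold itself differs. Among the 22 miRNAs above 0 in all 4 libraries there was 1, bma-miR-9507, which was not among the 28. The filter removes all 28, and the fit on the 22 also gave bma-miR-9507 an SE of 0.87, the same as for each of the 22. Over all members its SE was 2.16. Among the same 22, the 1 call as deposited was higher at T48, whereas with oan-miR-1421ag-5p also left out of the totals there were 5 calls and all were lower, so that the rescaling changed both the number and the direction. With 1 library left out, where the lone library is assumed to vary like the others, the counts were 61 to 89. The other settings gave 22 to 28 calls, and voom (26 calls) split them into 12 higher and 14 lower, against 7 and 21. The difference in the number of miRNAs above 0 was -10.5 at a minimum of 50 TPM, and -31.0 to -14.0 with 1 library left out. The difference in the summed share of the plant families was -2.15 percentage points, and the median log2 difference of the 22 was -0.054, without oan-miR-1421ag-5p in the totals. With 1 library left out the first ran over 4.53 to 33.6 and the second over -0.14 to 1.15. The causes of these last shifts were not tested.

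Single log2 differences also turned sign. Without oan-miR-1421ag-5p in the totals (over all members or over the 22 alone, which gave equal values) cel-miR-77-5p was at -0.023, dya-miR-9681-5p at -0.084, efu-miR-9225 at -0.25 and osa-miR1882a at -0.32. With median-of-ratios scaling efu-miR-9225 was at -0.099 and osa-miR1882a at -0.17. With 1 library left out, the ranges that crossed 0 were -0.011 to 1.39 for ath-miR168a-5p, -0.61 to 1.82 for cel-miR-77-5p, -0.14 to 4.28 for bma-miR-9507, -1.15 to 1.08 for ath-miR160a-5p, -0.14 to 1.22 for dya-miR-9681-5p, -0.17 to 1.64 for dvi-miR-9696a-5p, -1.86 to 0.098 for ath-miR164a, -0.15 to 0.91 for efu-miR-9225, -0.050 to 0.65 for osa-miR1882a and -1.15 to 0.24 for gga-miR-1762.

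No paired analysis was possible because the labels number only the second library of each time, so that T48 and T24 share no more than 1 number. With 2 libraries a time, entries of 0 for abundant miRNAs and 64886 reads in the shallowest library, absence of scarce miRNAs and differences below about the spread between the 2 libraries of a time cannot be resolved.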
